A study of Mus musculus with 12 samples.

Results

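Extracellular matrix and adhesion genes were followed through a table of cytosines that resisted bisulfite conversion in the RNA of mouse tissues. They were chosen by gene name, with patterns for fibrillar and other collagen chains, laminins, nidogens, fibrillins, fibulins and related glycoproteins. Further patterns were for matrix proteinases and their inhibitors, insulin-like growth factor binding proteins, integrins, tensins and surface proteoglycans. The syndecan gene Sdc3 was left out by the rule, which left no surface proteoglycan gene among the sites. The rule found 37 sites in 31 genes, of 2498 listed sites in 1964 genes, and used no measured value. The mice were C57BL/6, wild type and 8 to 10 weeks old, and their polyadenylated RNA was selected with 1 of 2 kits. Which library had which kit was not given in the labels. Heart had 1 female library, muscle 4 female libraries, liver 1 female library, and small intestine, lung and spleen 1 female and 1 male library each. The table gives 1 set of values per tissue, whatever the number of libraries, so no level below carries an error between animals. Tissue and sex cannot be told apart between the tissues with female libraries alone and the others.

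5-methylcytosine (m5C) is a methylated base of RNA that stays a cytosine under bisulfite, while unmodified cytosine is read as thymine. A level is the share of reads at a position that stayed unconverted. The matrix is the protein scaffold between cells: collagens give it tensile strength, laminins and nidogens form the thin basement membrane under epithelia and around muscle fibres and vessels, and elastic fibre proteins give recoil and hold growth factors. Integrins are the cell surface receptors that grip this scaffold, and tensins tie them to actin. In all 6 tissues much of the matrix is made by fibroblasts and vessel cells rather than by the cells the tissue is named for.

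Levels were read at positions with at least 20 reads. Of the 37 sites, 12 had this coverage in all 6 tissues, 26 in at least 2 tissues and 4 in 1 tissue. The remaining 7 had it nowhere: 6 sites were blank in every tissue, 4 of them in Mmp24 and 2 in Adamts4, and Itgb8 had 10 reads in heart alone. Blank sites made up 16.2% of the matrix and adhesion sites and 11.3% of all listed sites. Summed reads over the matrix and adhesion sites were 35106 in heart and 41466 in muscle, then 46013 in liver and 7578 in small intestine, and 11377 in lung and 1774 in spleen. In liver, 42089 of them were at the Igfbp4 site. Just inside the coverage limit, Nid2 had 55% of 20 reads in lung and Col11a2 18.2% of 22 reads in heart. Just outside it, Itgb1bp1 had 28.6% of 14 reads and Itgb3 38.5% of 13 reads in liver. The authors called 28 of the 37 sites as m5C in at least 1 tissue, or 75.7%, against 69.8% of all listed sites. Beside the 7 uncovered sites, those never called were Timp2 and Lama2.

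Tissue labels could be checked only through reads at listed sites. Alb, the albumin of hepatocytes, had 1177520 reads in liver and at most 66 elsewhere. The 14 sites of the skeletal muscle genes Myh1, Myh4 and Ryr1 had 1544249 of the 4683960 reads at listed sites in muscle, or 33.0%. Of these 14 sites, 11 also had at least 20 reads in lung, where they summed to 736 of 261562 reads, or 0.281%. The Defa24 and Lyz1 sites of Paneth cells had 13791 reads in small intestine and 664 in lung, which were 0.651% and 0.254% of the reads at listed sites there. The lung marker Abca3 had 981 reads in lung, or 0.375%, and 1001 in liver, or 0.0349%. The heart and spleen marker lists had no listed site.

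**Figure D1:**
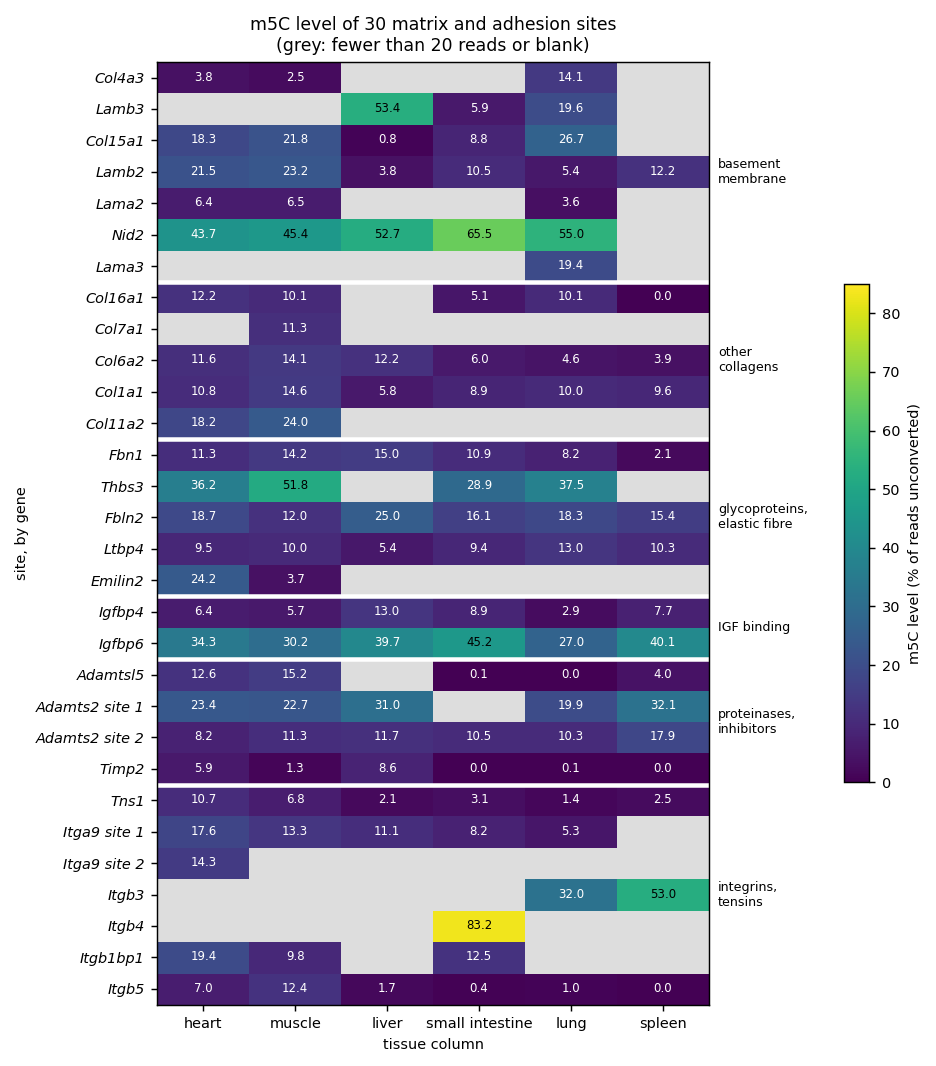
m5C level in percent of reads (colour and printed value) at the 30 matrix and adhesion sites with at least 20 reads in some tissue, by tissue column and grouped by role; grey cells had fewer reads or were blank. Nid2 was above 40% in each of its 5 tissues, and Itgb4 in small intestine was the highest value at 83.2%.

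Basement membrane genes held 7 sites, all covered in at least 1 tissue, with 26 levels between 0.794% and 65.5% and a median of 16.2%. Lamb2, the laminin chain of muscle and synaptic basement membranes, is on chromosome 9 at 108482548 (mm10, plus strand), 2701 nt from the 5′ end of the gene span. Its level was 21.5% of 4914 reads in heart, 23.2% of 3120 in muscle, 3.85% of 78 in liver, 10.5% of 171 in small intestine, 5.41% of 628 in lung and 12.2% of 98 in spleen. Heart and muscle were high and not called apart, and the other 4 were low and not called apart. A pair of tissues was called different at a site when Fisher's exact test, two-sided and run on read numbers, and adjusted by the Benjamini-Hochberg method over every listed site covered in both, gave p under 0.05 and levels differed by at least 10 points. By this rule Lamb2 was called in 7 of 15 pairs, the most of any of the 26 sites tested. Heart exceeded lung by 16.1 points (95% interval 13.7 to 17.97; Fisher's exact adjusted p = 1.87e-25), and muscle exceeded lung by 17.8 points (15.3 to 19.96; adjusted p = 2.82e-28 by the same exact test). Muscle exceeded spleen by 10.99 points, with an interval of 2.91 to 16.3. Heart and spleen differed by 9.22 points, under the 10 required.

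Nid2, a nidogen that links laminin to collagen networks, had the highest mean level over the tissues among sites covered in at least 3, at 52.5%. The site lies on chromosome 14 at 19752452 (plus strand), 1195 nt from the 5′ end. It had 43.7% of 503 reads in heart, 45.4% of 366 in muscle, 52.7% of 93 in liver, 65.5% of 113 in small intestine and 55% of 20 in lung. Small intestine was therefore the highest, and spleen was blank. Heart was lower than small intestine by 21.7 points (11.6 to 30.9; Fisher's exact adjusted p = 0.000123), and muscle lower by 20.1 points (9.65 to 29.7; exact adjusted p = 0.000561). No other pair was called at Nid2.

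Col15a1, a collagen of the basement membrane zone in muscle and vessels, lies on chromosome 4 at 47280207. It had 18.3% of 1020 reads in heart, 21.8% of 861 in muscle, 0.794% of 126 in liver, 8.82% of 136 in small intestine and 26.7% of 30 in lung. Liver was the low tissue, with 1 unconverted read. Heart exceeded liver by 17.5 points (Fisher's exact adjusted p = 1.17e-08), muscle exceeded it by 21.04 points (exact adjusted p = 8.37e-11), and liver was below lung by 25.9 points (12.9 to 43.7; exact adjusted p = 5.77e-05). The call against lung rests on 30 reads and ends at a minimum of 50 reads. The authors did not call Col15a1 as m5C in lung. Muscle also exceeded small intestine, by 13.01 points. Lamb3, a chain of the laminin under epithelia, lies on chromosome 1 at 193323896, and there liver was the highest tissue. It had 53.4% of 73 reads in liver, 5.94% of 303 in small intestine and 19.6% of 260 in lung. All 3 pairs were called. Liver exceeded small intestine by 47.5 points (35.7 to 58.7; Fisher's exact adjusted p = 4.29e-18) and lung by 33.8 points, and small intestine was below lung by 13.7 points.

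The other basement membrane sites were low or thinly covered. Col4a3, a collagen chain of alveolar and kidney basement membranes, had 3.85% of 52 reads in heart, 2.5% of 40 in muscle, and then 14.1% of 128 in lung. Lung was the highest of these, but none of the 3 pairs was called. Lama2, the laminin chain of muscle fibres, had 6.36% of 330 reads in heart, 6.54% of 153 in muscle, and then 3.57% of 28 in lung, and no pair was called. Lama3, which pairs with Lamb3, was covered in lung alone, with 19.4% of 36 reads (95% Wilson interval 9.75 to 35.03).

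The other collagens had 5 sites with 20 levels between 0% and 24% and a median of 10.1%. Col1a1, a chain of the main fibrillar collagen of connective tissue, is on chromosome 11 at 94942058, 5834 nt from the 5′ end. It had 10.8% of 1672 reads in heart, 14.6% of 7787 in muscle, 5.85% of 171 in liver, 8.93% of 750 in small intestine, 9.98% of 501 in lung and 9.60% of 198 in spleen. Muscle was the highest and liver the lowest, and no pair reached 10 points. Muscle and liver differed by 8.75 points (4.11 to 11.5; Fisher's exact adjusted p = 0.00146). Col6a2, a chain of the microfibrils around muscle fibres, lies on chromosome 10 at 76607132, minus strand. Its level was 11.6% of 2827 reads in heart, 14.1% of 4251 in muscle, 12.2% of 147 in liver, 5.96% of 1527 in small intestine, 4.56% of 504 in lung and 3.90% of 77 in spleen. Heart, muscle and liver thus lay above the other 3. Muscle exceeded spleen by 10.2 points (3.15 to 12.95; Fisher's exact adjusted p = 0.0140), the single pair called. Muscle and lung differed by 9.50 points at an exact adjusted p of 2.48e-10, just under the required difference.

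Col16a1, a collagen at the surface of fibrils, ran from 0 of 22 reads in spleen to 12.2% of 98 in heart, and no pair was called. A count of 0 in 22 reads still allows a level of up to 14.9% by the Wilson interval. Col11a2, a fibrillar chain of cartilage, had 18.2% of 22 reads in heart and 24% of 25 in muscle, which were not called apart. Col7a1, the anchoring fibril collagen of skin and other epithelia, was covered in muscle alone, with 11.3% of 53 reads.

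Glycoproteins and elastic fibre genes had 5 sites, with 24 levels between 2.13% and 51.8% and a median of 13.6%. Thbs3, a thrombospondin, lies on chromosome 3 at 89217880, 2700 nt from the 5′ end. It had 36.2% of 149 reads in heart, 51.8% of 249 in muscle, 28.9% of 45 in small intestine and 37.5% of 144 in lung. Muscle was the highest and was called against each of the other 3. Heart was lower than muscle by 15.6 points (5.47 to 25.1; Fisher's exact adjusted p = 0.00890). Muscle exceeded small intestine by 22.9 points (7.17 to 35.7) and lung by 14.3 points (4.09 to 23.98). The call against small intestine rests on 45 reads there and ends at a minimum of 50 reads. Heart, small intestine and lung were not called apart. The authors' deposited table gives a p of 1 and no call for Thbs3 in heart despite its 36.2%. Over the 74 levels of 10% or more at these sites, 9 carried no call by the authors (12.2%), against 13.99% over all listed sites. Emilin2, a glycoprotein of elastic fibres on chromosome 17 at 71273478, had 24.2% of 128 reads in heart and 3.66% of 82 in muscle. The difference of 20.6 points (11.3 to 29.01; Fisher's exact adjusted p = 0.000181) was the other call between heart and muscle, and it ran the other way.

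Fbln2, a fibulin of elastic fibres and heart valves on chromosome 6 at 91268545, was at 10% or more in every tissue. It had 18.7% of 1556 reads in heart, 11.99% of 2001 in muscle, 25% of 24 in liver, 16.1% of 87 in small intestine, 18.3% of 104 in lung and 15.4% of 26 in spleen. No pair was called, and heart and muscle differed by 6.71 points at a Fisher's exact adjusted p of 2.63e-07. Fbn1, the fibrillin of microfibrils on chromosome 2 at 125321622, had 11.3% of 852 reads in heart, 14.2% of 1135 in muscle, 15% of 40 in liver, 10.9% of 175 in small intestine, 8.25% of 194 in lung and 2.13% of 47 in spleen. Spleen stood low with 1 unconverted read, and the single call was muscle above spleen by 12.1 points (2.87 to 14.8; Fisher's exact adjusted p = 0.0280). That call rests on 47 reads in spleen and ends at a minimum of 50 reads. Ltbp4, which holds latent TGF-beta in the matrix, lies on chromosome 7 at 27330216. It had 9.55% of 2346 reads in heart, 9.99% of 711 in muscle, 5.38% of 186 in liver, 9.43% of 106 in small intestine, 12.98% of 416 in lung and 10.3% of 58 in spleen. Its range of 7.60 points was the smallest among the 12 sites covered everywhere, and no pair was called.

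Of the insulin-like growth factor binding proteins, Igfbp4 and Igfbp6 each had 1 site covered in all 6 tissues. Igfbp6, on chromosome 15 at 102149253 and 259 nt from the 3′ end of its gene, had the third-highest mean level of the sites covered in at least 3 tissues, 36.1%. Its level was 34.3% of 2959 reads in heart, 30.2% of 9663 in muscle, 39.7% of 121 in liver, 45.2% of 591 in small intestine, 26.99% of 3286 in lung and 40.1% of 252 in spleen. Small intestine was the highest and lung the lowest, and small intestine, spleen and liver were not called apart. Small intestine exceeded lung by 18.2 points (13.9 to 22.5; Fisher's exact adjusted p = 5.38e-16). Heart was below small intestine by 10.9 points and muscle below it by 14.9 points, the reverse of the order at Lamb2. Liver exceeded lung by 12.7 points, and lung was below spleen by 13.1 points (7.03 to 19.4). Igfbp6 and Fbln2 were the 2 sites of 12 at 10% or more in all 6 tissues, or 16.7%, beside 4.36% of the 802 listed sites covered everywhere.

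Igfbp4, a binding protein secreted in quantity by liver, lies on chromosome 11 at 99041697, 1692 nt from the 5′ end. Its level was 6.44% of 3244 reads in heart, 5.71% of 2590 in muscle, 13.01% of 42089 in liver, 8.88% of 811 in small intestine, 2.92% of 616 in lung and 7.72% of 311 in spleen. Liver held both the most reads and the highest level. Liver exceeded lung by 10.1 points (8.41 to 11.2; Fisher's exact adjusted p = 1.90e-16), the single call. Liver also lay above heart, where the difference of heart minus liver was -6.57 points at an exact adjusted p of 1.03e-30, without reaching 10 points. The highest level lay in the tissue with the most reads at 4 of the 12 sites, 33.3%, and at 38.03% of the 802.

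**Figure D2:**
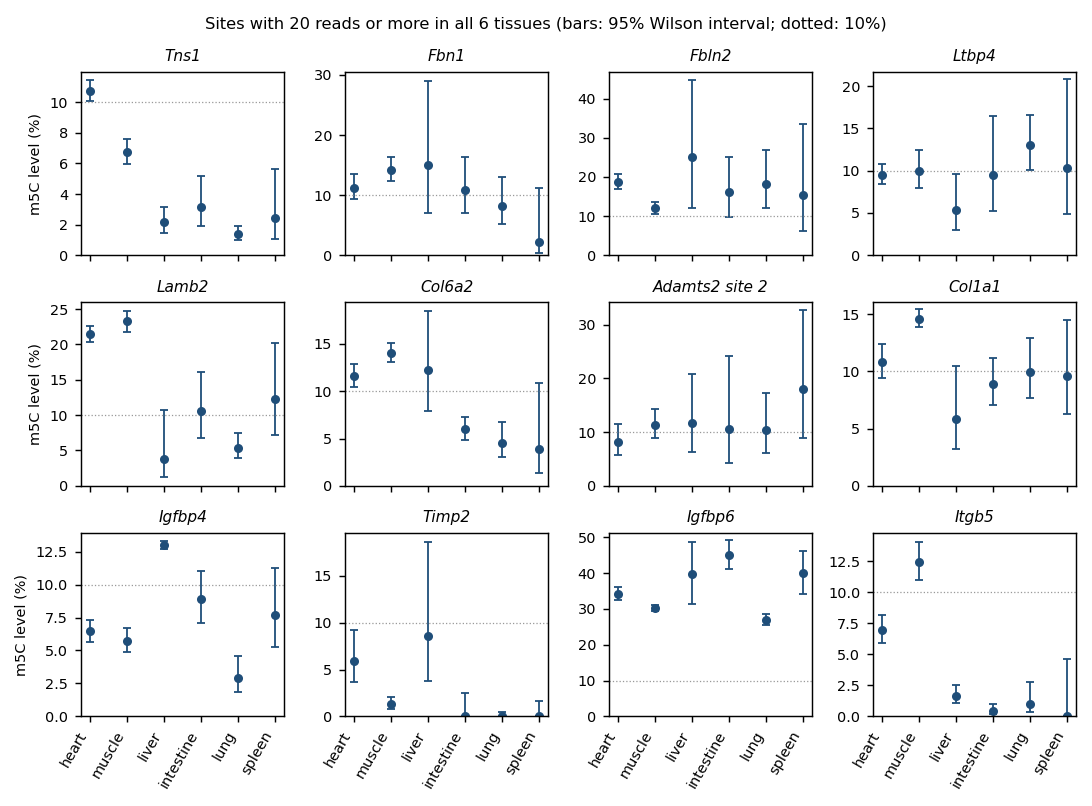
m5C level in percent (points, with 95% Wilson intervals of counting error) by tissue column at the 12 matrix and adhesion sites with at least 20 reads in all 6 tissues; each panel has its own axis from 0. Lamb2, Tns1 and Itgb5 have heart and muscle on top, Igfbp4 has liver at 13.01%, and Igfbp6 lies between 26.99% and 45.2% throughout.

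Matrix proteinases and inhibitors had 10 sites in 5 genes, of which 4 sites in Adamts2, Adamtsl5 and Timp2 were covered. Adamts2, the enzyme that trims the amino end of procollagen, had 2 sites on chromosome 11 that lie 16643 nt apart. The first, at 50779812, had 23.4% of 615 reads in heart, 22.7% of 664 in muscle, 31.0% of 126 in liver, 19.9% of 221 in lung and 32.1% of 28 in spleen. The second, at 50796455, had 8.19% of 342 reads in heart, 11.3% of 533 in muscle, 11.7% of 77 in liver, 10.5% of 38 in small intestine, 10.3% of 116 in lung and 17.9% of 39 in spleen. The first site was above the second in each of the 5 tissues that covered both. No pair of tissues was called at either site, and both were highest in spleen, at under 40 reads each. Their 95% Wilson intervals in spleen ran from 17.9% to 50.7% at the first site and from 8.98% to 32.7% at the second.

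Adamtsl5, a relative of these enzymes without a proteinase domain, lies on chromosome 10 at 80340231, 438 nt from the 3′ end. It had 12.6% of 1074 reads in heart, 15.2% of 415 in muscle, 0.125% of 800 in small intestine, 0% of 74 in lung and 4% of 25 in spleen. Heart and muscle were high while small intestine had 1 unconverted read, and lung had none, which allows a level of up to 4.93% by the Wilson interval. Heart exceeded small intestine by 12.4 points (10.5 to 14.6; Fisher's exact adjusted p = 4.02e-32) and lung by 12.6 points. Muscle exceeded small intestine by 15.1 points (11.9 to 18.8; exact adjusted p = 4.78e-29) and lung by 15.2 points. Timp2, an inhibitor of matrix metalloproteinases on chromosome 11 at 118303468, stayed under 10% everywhere. It had 5.90% of 288 reads in heart, 1.29% of 1164 in muscle, 8.62% of 58 in liver, 0% of 147 in small intestine, 0.0880% of 1136 in lung and 0% of 233 in spleen. Liver and heart were the highest; heart minus lung was 5.81 points (3.59 to 9.16; Fisher's exact adjusted p = 1.34e-10), and no pair reached 10 points. The blank sites of Mmp24, a membrane-type metalloproteinase, lie within 10 nt on chromosome 2 from 155775588 to 155775598. Those of the aggrecan-cutting enzyme gene Adamts4 lie on chromosome 1 at 171251060 and 171256665.

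Integrins and tensins had 8 sites in 7 genes, with 24 levels between 0% and 83.2% and a median of 9.01%. Itgb5, the chain of a vitronectin receptor, lies on chromosome 16 at 33885078. It had 6.95% of 1927 reads in heart, 12.4% of 1731 in muscle, 1.67% of 1255 in liver, 0.393% of 1017 in small intestine, 0.962% of 312 in lung and 0% of 80 in spleen. Muscle was the highest and heart second. Muscle exceeded liver by 10.7 points (Fisher's exact adjusted p = 2.28e-30), small intestine by 12.03 points (10.4 to 13.7; exact adjusted p = 1.28e-38), lung by 11.5 points and spleen by 12.4 points. Tns1, the tensin of focal adhesions on chromosome 1 at 73913076, had 10.7% of 7530 reads in heart, 6.75% of 3584 in muscle, 2.14% of 1167 in liver, 3.15% of 445 in small intestine, 1.38% of 2470 in lung and 2.45% of 204 in spleen. Heart was the highest, 3.99 points above muscle, and no pair reached 10 points. Heart minus lung was 9.37 points (8.499 to 10.2; Fisher's exact adjusted p = 6.61e-62).

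Itga9, an integrin chain of lymphatic vessels and other tissues, had 2 sites 53 nt apart on chromosome 9, 133 and 186 nt from the 5′ end. The first, at 118606842, had 17.6% of 443 reads in heart, 13.3% of 75 in muscle, 11.1% of 135 in liver, 8.22% of 73 in small intestine and 5.26% of 38 in lung. The levels followed the order of heart, muscle, liver, small intestine and lung, but no pair was called. The second, at 118606895, was covered in heart alone, with 14.3% of 133 reads. Itgb4, the integrin chain of epithelial hemidesmosomes on chromosome 11 at 116005093, was covered in small intestine alone and had the highest level of all, 83.2% of 137 reads (95% Wilson interval 76.1 to 88.5). Itgb3, the integrin chain of platelets and vessels at 104668310 on the same chromosome, was at 32.0% of 25 reads in lung, against 53.0% of 66 in spleen, and these were not called apart. Itgb1bp1, which binds an integrin tail, had 19.4% of 62 reads in heart, 9.80% of 51 in muscle, and then 12.5% of 24 in small intestine, and no pair was called. The Itgb8 site lies 119 nt beyond the 3′ end of its RefSeq gene span.

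Across tissues, matrix and adhesion sites reached 10% more often than listed sites in general, by different margins. In heart 18 of 25 covered sites did so, or 72.0%, beside 57.9% of all listed sites. In muscle 17 of 25 did, 68.0%, beside 61.3%. In liver 10 of 17 did, 58.8%, beside 36.5%. Small intestine had 9 of 21, 42.9%, beside 24.2%. Lung had 13 of 24, 54.2%, beside 13.7%, and spleen 7 of 16, 43.8%, beside 12.2%. The gap was smallest in muscle and largest in lung. A high level in 1 tissue can be what put a site in the table, so these shares are a description with no test.

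At the 12 sites covered everywhere the median level was 10.8% in heart and 12.2% in muscle, then 10.2% in liver and 9.18% in small intestine, and 6.83% in lung and 8.66% in spleen. At a minimum of 50 reads 9 sites were left, and the liver median was 5.85%. Over the 802 listed sites covered everywhere it was 10.9% in heart and 12.2% in muscle, then 5.11% in liver and 2.93% in small intestine, and 1.78% in lung and 1.31% in spleen. The range between the highest and the lowest tissue had a median of 10.1 points over the 12 sites and 13.5 points over the 802. The highest level lay in muscle at 4 of the 12 sites and in liver at 4, while heart, small intestine, lung and spleen had 1 each. Of the sites highest in liver, Fbln2, Fbn1 and Timp2 had only 24, 40 and 58 reads there. At none of these was liver called above another tissue. Over the 802, muscle was highest at 46.6%, heart at 30.8% and liver at 11.2%. Median reads at the 12 sites and at the 802 were 2136.5 and 585 in heart and 2295.5 and 627 in muscle. They were 134 and 414 in liver and 310 and 412 in small intestine. They were 502.5 and 128 in lung and 89 and 99 in spleen.

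**Figure D3:**
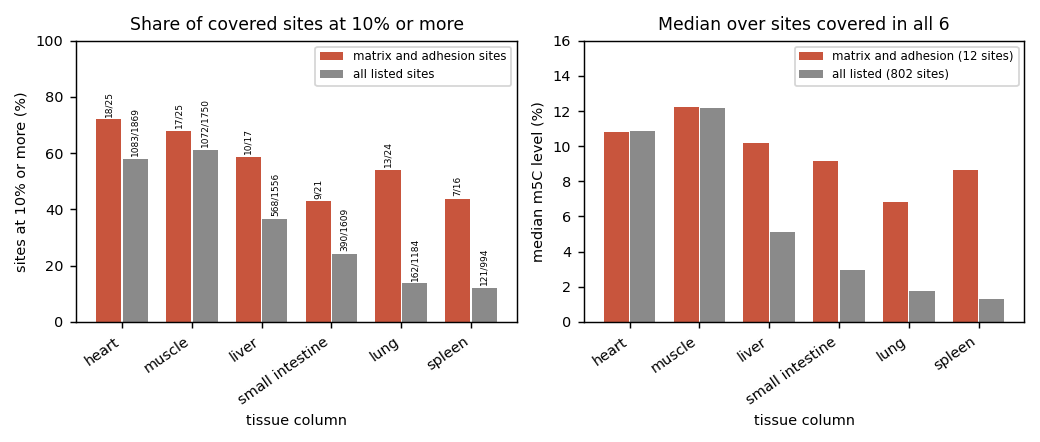
Left, share of covered sites with a level of at least 10% in each tissue column (bars, with counts), for matrix and adhesion sites and for all listed sites. Right, median level in percent over the sites covered in all 6 tissues, 12 and 802; the paired bars are nearly equal in heart and muscle and part in the other 4 tissues, with 6.83% and 1.78% in lung.

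Of the 26 sites tested in at least 1 pair of tissues, 12 were called in some pair, or 46.2%, beside 57.7% of the 1916 listed sites tested. Heart against muscle gave 2 of 24 sites (8.33%, beside 15.4% of all), Thbs3 and Emilin2. Heart was then set against the remaining tissues. Against liver 2 of 16 were called (beside 22.3%), Col15a1 and Lamb2, both higher in heart (beside 19.6% of all). Against small intestine 4 of 19 were called (beside 29.7%). Lamb2 and Adamtsl5 were higher in heart (beside 27.5%). Nid2 and Igfbp6 were lower in heart, beside 32 of the 1465 listed sites tested. Against lung 2 of 21 were called (beside 34.9%), Lamb2 and Adamtsl5, both higher in heart (beside 33.7%). Against spleen 0 of 15 were called (beside 35.9%, and 34.3% higher in heart). By Fisher's exact test 5 of the 15 had an unadjusted p under 0.05. Of these, 4 also had an adjusted p under 0.05 (Tns1, Lamb2, Timp2 and Itgb5) and missed the call only by differing by under 10 points.

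Muscle was higher than liver at 3 of 16 sites, Col15a1, Lamb2 and Itgb5, and lower at 0 (beside 30.4% called and 27.1% higher). Against small intestine 7 of 19 were called (beside 40.2%). Thbs3, Col15a1, Lamb2, Adamtsl5 and Itgb5 were higher in muscle (5 of 19, beside 37.4%). Nid2 and Igfbp6 were lower in muscle (2 of 19), beside 39 of the 1397 listed sites tested. Against lung 4 of 21 were called (beside 43.9%), Thbs3, Lamb2, Adamtsl5 and Itgb5, each higher in muscle (beside 42.2%). The median difference of muscle minus lung was 2.96 points over the 21 sites and 9.60 over the 1097 listed sites tested. The reads of skeletal muscle genes in the lung column, given above, stand beside these values, and their part in the levels was not tested. Against spleen 4 of 15 were called (beside 44.6%), Fbn1, Lamb2, Col6a2 and Itgb5, each higher in muscle (beside 42.6%). In each of these 9 pairs that hold heart or muscle, the share of matrix and adhesion sites called lay under the share of all sites, and the smallest gap was in muscle against small intestine.

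The remaining 6 pairs hold neither heart nor muscle. Liver against small intestine gave 1 of 16, Lamb3 (beside 11.2%). Liver against lung gave 4 of 17 (beside 13.9%): Lamb3, Igfbp4 and Igfbp6 were higher in liver and Col15a1 lower. Small intestine against lung gave 2 of 19 (beside 5.02%), with Igfbp6 higher in small intestine and Lamb3 lower. Lung against spleen gave 1 of 16, Igfbp6 (beside 1.24%). By Fisher's exact test liver against spleen gave 0 of 13 (beside 13.1%; 3 had an unadjusted p under 0.05) and small intestine against spleen 0 of 14 (beside 4.31%; 0 had an unadjusted p under 0.05). Among these pairs the share of matrix and adhesion sites called lay above the share of all sites in liver against lung (23.5%), small intestine against lung (10.5%) and lung against spleen (6.25%). In the others it lay under that share. Pairs share tissue columns, so their calls are not independent of each other. Spleen had a median of 71.5 reads at matrix and adhesion sites. At Lamb2, with 98 reads in spleen, heart minus spleen was 9.22 points with an interval from 1.20 to 14.5.

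**Figure D4:**
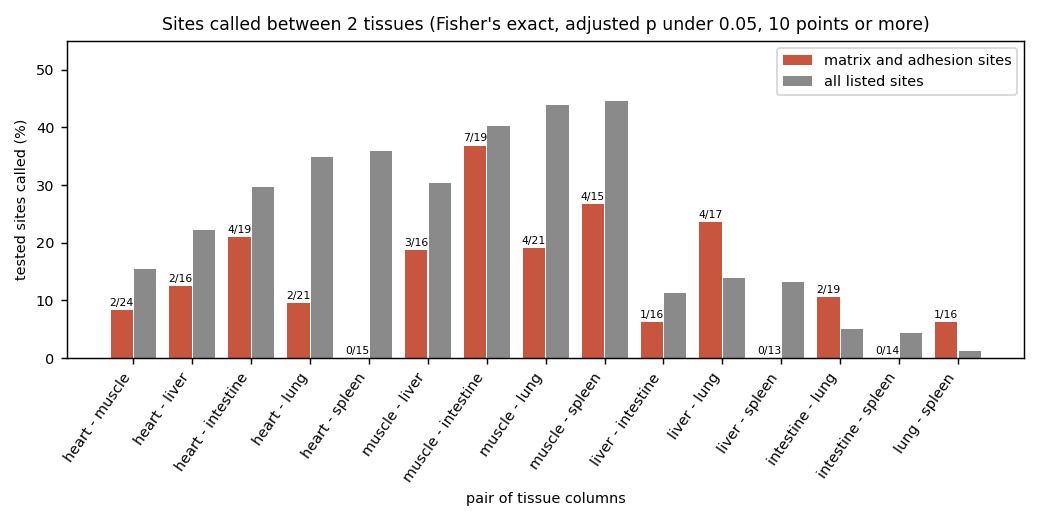
Percent of tested sites called different between the 2 tissue columns of each pair (first minus second named), for matrix and adhesion sites (with counts called and tested) and for all listed sites. Bars of matrix and adhesion sites are the lower of each couple in the 9 pairs that hold heart or muscle, from 0 of 15 in heart against spleen to 7 of 19 in muscle against small intestine. They are the higher in liver against lung, small intestine against lung and lung against spleen.

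All 37 sites matched a protein-coding gene in the RefSeq table for assembly GRCm38.p6 (mm10), and 36 lay inside its span. In genes of 10 kb or more, 7 of 34 sites (20.6%) lay within 1 kb of the 5′ end, beside 17.8% of all such sites. Those 7 were the 4 sites of Mmp24, both sites of Itga9 and 1 site of Adamts4, and only those of Itga9 had reads. Within 1 kb of the 3′ end lay 1 site (2.94%), Col11a2, beside 16.9%, and 26 (76.5%) lay elsewhere, beside 65.3%. Igfbp6 and Adamtsl5, at 259 and 438 nt from the 3′ end, are in genes under 10 kb and were not counted. Sites with another listed site within 10 nt were the 4 of Mmp24, 10.8% of the 37, beside 12.5% of all listed sites, so no covered matrix or adhesion site had such a neighbour. Distances were counted along the gene with introns included, and exon boundaries were not used here.

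A list of 62 further matrix genes outside the name rule had 11 sites in 7 genes, and 60 further adhesion genes had 14 sites in 10 genes. In each list 5 of 11 tested sites were called in some pair of tissues, beside the 57.7% of all listed sites given above. At the 4 matrix sites covered everywhere, in Vwf, Crtap and Tnxb, the median level was 13.7% in heart and 8.999% in muscle, then 10.6% in liver and 5.23% in small intestine, and 6.28% in lung and 11.6% in spleen. Vwf, the von Willebrand factor of endothelium, had 19.3% of 1159 reads in heart, 12.7% of 608 in muscle, 11.3% of 97 in liver, 4.43% of 158 in small intestine, 10.1% of 892 in lung and 14.5% of 76 in spleen. Htra1, a secreted serine proteinase, had 21.1% of 1256 reads in heart, 18.1% of 713 in muscle, 10.7% of 84 in small intestine, 3.401% of 147 in lung and 5.26% of 95 in spleen. At the 5 adhesion sites covered everywhere the median was 8.62% in heart and 8.02% in muscle, then 3.81% in liver and 1.85% in small intestine, and 3.57% in lung and 1.93% in spleen. Vcl, the vinculin of focal adhesions, had 3.76% of 2263 reads in heart, 13.1% of 1819 in muscle, 2.62% of 534 in liver, 1.85% of 596 in small intestine, 0.170% of 589 in lung and 0% of 157 in spleen. Vcl was thus highest in muscle, as was Itgb5, while the adhesion list as a whole leaned towards heart. At its 9 sites tested in heart against muscle, the median of heart minus muscle was 5.88 points. It was -0.313 points over the 1645 listed sites tested. Of the 9, 1 was called higher in heart and 0 lower, beside 88 higher and 165 lower of the 1645. The surface protein gene Cd81 had 18.9% of 13653 reads in heart, 8.06% of 5847 in muscle, 14.2% of 12434 in liver, 3.69% of 8756 in small intestine, 4.83% of 1407 in lung and 1.93% of 984 in spleen.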

How the data were processed

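RNA bisulfite sequencing of polyadenylated RNA from 12 libraries of 6 mouse tissues was analysed from 1 table of sites. The submitters' processing notes name HISAT2 2.10, SAMtools, cutadapt, Trimmomatic, bcl2fastq 2.17 and build mm10. What step each tool served, which filters were set and how libraries were combined were not given in the sources used here. Incomplete conversion would also leave cytosines unconverted. Per the file headers, each tissue has the coverage as a count of reads, the m5C level as a fraction, a p-value and a site call. The lowest deposited count is 10 reads. Deposited fractions were multiplied into percentages. P-values and calls deposited by the authors were used to compare calls, and the calls to keep sites in 1 alternative. All sites they called had at least 20 reads.

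Unconverted reads were recovered as level times coverage, within 0.000179 of a whole number in all 9926 filled cells. At 20 reads or more in both tissues, each of 15 pairs was tested on every listed site with Fisher's exact test, two-sided, in SciPy 1.17.1, adjusted by Benjamini-Hochberg within the pair in statsmodels 0.14.6. Differences are first tissue minus second in the order heart, muscle, liver, small intestine, lung, spleen, with Newcombe 95% intervals; single levels have 95% Wilson intervals. All cover counting error only, and reads may not be independent molecules. The pair test was also run on simulated data, with reads drawn independently and no spread between libraries. Such data cannot test either of these limits. The members and gene lists were chosen with earlier results of these data known. Every gene of the rule is named. Values in every covered tissue are given for sites covered everywhere, the 5 highest means, the 2 largest called differences per pair, the most covered site of each role and genes with 2 or more sites; other genes were added after their values were seen. Alternatives changed the coverage minimum, the minimum difference, the adjustment and the sites kept.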

Additional observations from a re-analysis of the deposited data

How the results depend on the processing

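No paired analysis was possible because each tissue has 1 column set that does not separate its libraries; for the same reason no library could be left out. Other settings were a coverage minimum of 10 or 50 reads, no minimum difference, adjustment over all 15 pairs together, sites the authors call in at least 1 tissue, and sites without a neighbour within 10 nt. The number of matrix and adhesion sites called in some pair stayed within 1.5 times the reported 12 under each of these 6. Without a minimum difference, heart had 9 of 24 sites called against muscle, 5 of 16 against liver and 10 of 19 against small intestine. It had 8 of 21 called against lung and 4 of 15 against spleen. Muscle had 7 of 16 called against liver, 11 of 19 against small intestine, 11 of 21 against lung and 6 of 15 against spleen. Liver had 6 of 16 called against small intestine, 7 of 17 against lung and 2 of 13 against spleen. Small intestine had 3 of 19 called against lung and 0 of 14 against spleen, and lung 2 of 16 against spleen. The shares of all listed sites at this setting are not given for single pairs. Without them, these pair counts cannot be read as high or low beside all listed sites, and no conclusion is drawn from them. With that setting 17 of 26 sites (65.4%) were called in some pair, beside 70.0% of all listed sites. At 50 reads, 4 sites reached 10% in spleen, beside 7 of 16 at 20 reads. The higher minimum also left fewer covered sites in spleen, so the lower count is not by itself a lower share. Medians over the sites covered everywhere were recomputed under settings picked after seeing the data; at 50 reads 9 sites were left and the liver median was 5.85%. At 50 reads, 3 calls could not be tested and ended: Fbn1 in muscle against spleen, Col15a1 in liver against lung and Thbs3 in muscle against small intestine.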
